A study of Mus musculus with 12 samples.

Results

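The 38 genes described here encode proteins that copy DNA and divide the cell. They were taken by symbol from a table of 55471 mouse genes, each symbol was found once, and all 38 passed the filter on low counts that left 18228 genes for testing. Of the 38, 20 act in replication: 12 in origin licensing and the helicase (*Mcm2* to *Mcm7*, *Mcm10*, *Cdc45*, *Cdc6*, *Cdt1*, *Gins1*, *Gins2*), 4 at the sliding clamp and in copying chromatin marks (*Pcna*, *Rfc3*, *Rfc4*, *Uhrf1*), and 4 in deoxynucleotide supply (*Rrm1*, *Rrm2*, *Tyms*, *Tk1*). The other 18 act in mitosis: 5 drive entry into and exit from it (*Ccna2*, *Ccnb1*, *Ccnb2*, *Cdk1*, *Cdc20*), 6 are mitotic kinases, checkpoint proteins or their passenger (*Plk1*, *Aurka*, *Aurkb*, *Bub1*, *Bub1b*, *Birc5*), and 7 act on the spindle, centromere or chromosome (*Kif11*, *Kif20a*, *Tpx2*, *Cenpe*, *Cenpf*, *Top2a*, *Mki67*).

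RNA-seq was performed on dendritic cells (DCs) grown from the bone marrow of C57BL/6 mice, which were adult females per the study's methods, in the presence of the growth factor GM-CSF. All cells carried a retroviral LMP vector with a human CD8 reporter and were sorted on that reporter. The hairpin RNA it expressed targeted firefly luciferase in shControl cells, and in sh*Ppargc1b* cells it targeted the mRNA of PGC-1β, a co-activator of mitochondrial genes. The labels did not say which *Ppargc1b* hairpin was used. Sorted cells were left unstimulated or received interferon-β (IFN-β) for 6 h, which gave 4 groups of 3 libraries. The labels named no separate cultures or mice, so p-values measured only the spread between these libraries, which may be technical.

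Replication starts when the origin recognition complex, *Cdc6* and *Cdt1* load the Mcm2-7 ring onto DNA, and the ring becomes an active helicase once Cdc45 and the GINS complex join it. Mitosis follows when cyclin B and Cdk1 become active, and it ends when Cdc20 directs the anaphase-promoting complex against cyclin B and securin. E2F factors drive many replication genes at the start of S phase, and the MuvB complex with B-Myb and FoxM1 drives many mitosis genes later in the cycle. Bone marrow cultures in GM-CSF begin with dividing progenitors, and most cells leave the cycle as they differentiate.

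To show the DNA through which these factors are known to act, RefSeq promoter windows (GRCm38.p6, 250 bases before and 50 after the start) were searched on both strands for the E2F words TTTCCCGC, TTTCGCGC, TTTGCCGC and TTTGGCGC, the cell cycle homology region (CHR) words TTTGAA and TTCGAA, and the CCAAT box CCAAT. Windows were matched for 31 members, 17 for replication and 14 for mitosis, and not for *Ccna2*, *Gins1*, *Gins2*, *Mcm4*, *Aurkb*, *Kif20a* and *Tpx2*. An E2F word lay in 8 of 17 replication windows (47.1%), in 1 of 14 mitosis windows (7.14%, *Cdk1*) and in 2.6% of the windows of 27025 genes. A CHR word lay in 4 of 17 replication windows (23.5%), in 11 of 14 mitosis windows (78.6%) and in 21.7% of all genes. The CCAAT box lay in 70.6% of replication windows, 92.9% of mitosis windows and 41.1% of all genes. These are matches of letters and not known binding sites. The 250 bases before the start are shown, with every word in capitals on either strand, for the replication and mitosis members with the highest mean CPM that held a word (*Pcna*, *Rrm1*, *Top2a*, *Mki67*). They are also shown for 3 members added after their values were seen: *Mcm6* for its 3 E2F words, 2 of which overlap, *Cdk1* for holding all 3 kinds of word, and *Bub1b* as the member that passed the test in each pairwise comparison.
Pcna: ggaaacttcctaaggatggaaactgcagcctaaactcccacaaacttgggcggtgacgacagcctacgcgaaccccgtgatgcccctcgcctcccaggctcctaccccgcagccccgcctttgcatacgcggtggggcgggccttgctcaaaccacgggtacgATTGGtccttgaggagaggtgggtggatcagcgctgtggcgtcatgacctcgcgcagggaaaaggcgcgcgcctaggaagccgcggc
Mcm6: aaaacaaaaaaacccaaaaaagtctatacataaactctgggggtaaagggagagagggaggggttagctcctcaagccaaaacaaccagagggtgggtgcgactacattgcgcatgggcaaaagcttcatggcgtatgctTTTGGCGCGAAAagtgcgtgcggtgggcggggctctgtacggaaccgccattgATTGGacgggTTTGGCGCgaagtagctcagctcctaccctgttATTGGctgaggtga
Rrm1: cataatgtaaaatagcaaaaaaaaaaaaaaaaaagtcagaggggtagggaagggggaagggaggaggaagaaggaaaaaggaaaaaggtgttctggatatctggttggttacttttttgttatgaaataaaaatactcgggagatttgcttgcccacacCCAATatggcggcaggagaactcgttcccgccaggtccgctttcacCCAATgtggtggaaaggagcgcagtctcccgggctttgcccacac
Cdk1: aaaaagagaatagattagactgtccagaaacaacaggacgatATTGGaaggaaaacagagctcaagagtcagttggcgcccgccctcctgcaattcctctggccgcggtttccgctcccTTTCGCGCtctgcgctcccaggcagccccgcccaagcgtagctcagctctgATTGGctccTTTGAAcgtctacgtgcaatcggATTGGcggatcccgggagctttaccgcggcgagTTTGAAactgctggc
Bub1b: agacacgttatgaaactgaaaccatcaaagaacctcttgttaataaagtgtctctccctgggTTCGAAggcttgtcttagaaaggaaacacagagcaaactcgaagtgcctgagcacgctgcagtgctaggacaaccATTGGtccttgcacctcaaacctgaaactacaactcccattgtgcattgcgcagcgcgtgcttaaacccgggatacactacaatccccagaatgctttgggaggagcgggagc
Top2a: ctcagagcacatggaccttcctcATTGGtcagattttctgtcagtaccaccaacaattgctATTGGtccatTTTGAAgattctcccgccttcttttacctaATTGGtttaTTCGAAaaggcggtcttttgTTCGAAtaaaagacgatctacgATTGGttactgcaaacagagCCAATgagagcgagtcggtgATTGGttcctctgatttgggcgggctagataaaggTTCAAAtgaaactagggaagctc
Mki67: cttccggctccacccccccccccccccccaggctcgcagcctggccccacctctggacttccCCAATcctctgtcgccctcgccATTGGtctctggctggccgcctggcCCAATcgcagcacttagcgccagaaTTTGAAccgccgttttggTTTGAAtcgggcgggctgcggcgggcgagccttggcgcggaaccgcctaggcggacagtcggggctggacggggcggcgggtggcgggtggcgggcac
In the same order, they lie at chr2:132253181-132253430 on the minus strand, chr1:128359706-128359955 on the minus strand, chr7:102441445-102441694 on the plus strand, chr10:69352913-69353162 on the minus strand, chr2:118597961-118598210 on the plus strand, chr11:99024190-99024439 on the minus strand and chr7:135716380-135716629 on the minus strand. The *Cdk1* words began 131 bases (E2F) and 71 and 15 bases (CHR) before the start. The *Top2a* window held 4 CHR words and 6 CCAAT boxes, and a further CHR word of *Bub1b* began 40 bases after its start.

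The knockdown was checked first. *Ppargc1b* was at 33.4, 33.3 and 36.7 CPM (counts scaled to the effective library size) in the unstimulated shControl libraries and at 18.6, 19.3 and 20.3 in the unstimulated sh*Ppargc1b* libraries (log2 fold change -0.83, SE 0.10, edgeR adjusted p = 3.25e-05). With IFN-β it was at 31.4, 23.6 and 28.4 against 19.6, 15.5 and 20.9 (log2 fold change -0.57, SE 0.11, adjusted p = 0.000945). Of 13 dendritic cell markers, 12 were tested, with *Itgax* at a group mean of 949 to 1154 CPM, *Flt3* at 1.92 to 3.34 and *Cd209a* left out for low counts. The macrophage marker *Csf1r* was at 1177 to 1226 CPM, and *Mpo*, *Elane*, *Prtn3* and *Ctsg* of the granulocyte progenitors were at or below 0.539. Libraries held 49919648 to 77726101 counts. TMM scaling factors were 1.07 to 1.09 without IFN-β and 0.914 to 0.941 with it, so the all-gene median of the IFN-β effect was -0.03 log2 in shControl and -0.02 in sh*Ppargc1b* cells under TMM, and -0.27 and -0.22 under plain library totals.

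The 12 libraries carry codes in the labels that form 3 runs of 4 consecutive numbers, 883 to 894, with 1 library of each group in each run. The labels say nothing of what a run is, and libraries are numbered 1 to 3 by their run below. The members' values also differed by run, which is described after the comparisons.

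The module was a small part of the RNA: its 38 members held 0.0443% to 0.0992% of the counts of a library, and single members had 26 to 13095 counts. Per length of all annotated exons of a gene together, in unstimulated shControl cells, *Pcna*, the sliding clamp, was highest at 25.1 ± 1.58 RPKM (SD, n = 3), followed by the proliferation antigen *Mki67* at 20.5 ± 2.66. The next were *Mcm4* at 8.99 ± 1.06, *Mcm3* at 7.35 ± 0.482, *Top2a* at 6.87 ± 1.07 and *Ccnb2* at 6.84 ± 1.12, and the last 3 lay within about an SD of each other. The lowest were *Mcm10* at 0.674 ± 0.0747 and *Tk1* at 0.622 ± 0.0868 RPKM. The exon length was 2400 bases for *Pcna* and 5198 for *Tk1* and can exceed that of the mRNA, so the order depends on the annotation. In bulk RNA, fewer cycling cells and less RNA per cycling cell cannot be told apart, and this holds for every result below.

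**Figure D1:**
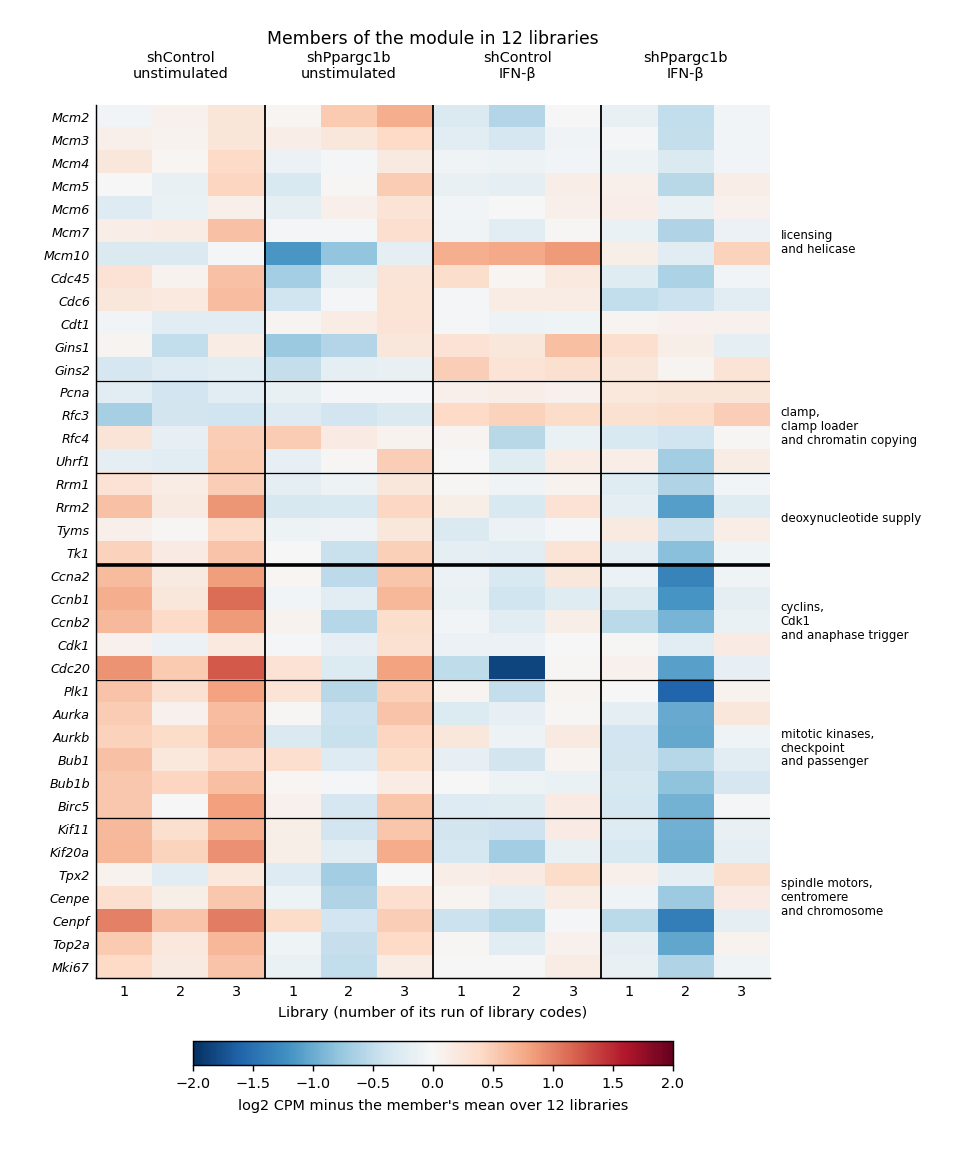
Level of each of the 38 members (vertical axis, grouped by role, replication above the thick line and mitosis below it) in the 12 libraries (horizontal axis, 3 per group, numbered by run of library codes), as log2 CPM minus the member's mean over all libraries, red higher and blue lower. Most mitosis members are highest in unstimulated shControl libraries 1 and 3 and lowest in IFN-β-treated sh*Ppargc1b* library 2, while *Mcm10*, *Gins2* and *Rfc3* are highest with IFN-β.

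To ask how loss of *Ppargc1b* affected these genes at rest, unstimulated sh*Ppargc1b* cells were compared with unstimulated shControl cells. Of the 38 members, 2 rose, *Cdt1* and *Pcna*, and 3 fell, *Bub1b*, *Ccnb2* and *Mki67*. Over all 18228 genes, 12.4% passed higher and 11.1% lower. With the run of library codes as a term of the model, 3 members rose and 22 fell, 16 of them mitosis members, against 14.2% and 13.4% of all genes, so the count that fell depended on whether the run was in the model. The median log2 fold change was -0.33 over the members and -0.00490 over all genes tested. By arm it was -0.07 over the 20 replication members and -0.46 over the 18 mitosis members, and all 18 mitosis members had values below 0, from -0.67 to -0.01. The median over the 38 members was -0.16 without unstimulated sh*Ppargc1b* library 2 and -0.56 without unstimulated sh*Ppargc1b* library 3.

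The replication members that rose did so modestly. *Pcna* was at 62.8, 55.9 and 62.1 CPM in shControl and at 65.9, 71.4 and 71.8 in sh*Ppargc1b* libraries, with no overlap (log2 fold change 0.21, SE 0.05, adjusted p = 0.00459). *Cdt1*, which loads the helicase ring, was at 6.25, 5.64 and 5.55 against 6.74, 7.21 and 7.84 CPM, again with no overlap (0.32, SE 0.08, adjusted p = 0.0109). Without sh*Ppargc1b* library 3, its adjusted p was 0.0595. The helicase members did not pass, and they lay on both sides of 0. *Mcm2* had the highest value of the module, at 8.43, 9.31 and 10.5 against 9.07, 12.6 and 14.5 CPM, and its groups overlapped (0.36, adjusted p = 0.142). *Mcm4*, the licensing member with the highest CPM, was at 32.4, 28.4 and 36.0 against 25.6, 27.3 and 31.6 CPM (-0.20, adjusted p = 0.137). *Mcm10*, *Cdc45* and *Cdc6* had values of -0.44, -0.46 and -0.37 with adjusted p of 0.140, 0.129 and 0.117. Of the deoxynucleotide enzymes, the large subunit of ribonucleotide reductase, *Rrm1*, was at 36.6, 33.1 and 42.1 against 26.3, 27.8 and 35.1 CPM, which overlapped (-0.32, adjusted p = 0.0770), and the small subunit *Rrm2* had a value of -0.60 (adjusted p = 0.0886).

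Among the mitosis members, *Bub1b*, the checkpoint protein BubR1, had the smallest SE. It was at 28.4, 26.4 and 29.8 CPM in shControl and at 20.1, 19.3 and 21.7 in sh*Ppargc1b* libraries, so that every knockdown library lay below every control library (-0.47, SE 0.10, adjusted p = 0.00244). Its within-run differences were -0.49, -0.45 and -0.46. *Mki67* was at 208, 179 and 232 against 143, 112 and 174 CPM, also with no overlap (-0.53, SE 0.14, adjusted p = 0.0137). *Ccnb2*, a B-type cyclin, fell from 10.5 ± 1.71 to 6.69 ± 2.02 CPM (-0.64, SE 0.21, adjusted p = 0.0350). *Cenpf*, a kinetochore protein, had the lowest value of the module, at 24.7, 18.3 and 25.1 against 15.98, 9.51 and 17.4 CPM, without overlap, and did not pass (-0.67, SE 0.24, adjusted p = 0.0625). *Cdk1*, the kinase that cyclin B activates, was at 15.99, 13.9 and 17.2 against 14.9, 13.4 and 18.5 CPM (-0.01, SE 0.12, adjusted p = 0.981). Its partner cyclins *Ccna2* and *Ccnb1* had values of -0.48 and -0.54 (adjusted p = 0.259 and 0.148). *Bub1*, the kinase of the same checkpoint as *Bub1b*, was at 32.2, 24.98 and 28.6 against 27.3, 17.9 and 28.0 CPM, and the groups overlapped (-0.23, adjusted p = 0.313). The count of members that fell depended on single libraries. It was 1 without shControl library 3 or without sh*Ppargc1b* library 2, 7 without shControl library 2, 8 without IFN-β-treated sh*Ppargc1b* library 2 and 17 without sh*Ppargc1b* library 3, and *Mki67* (adjusted p = 0.0622 and 0.0647) and *Ccnb2* (0.132 and 0.146) no longer passed without the first 2 of these. *Ccnb2* also no longer passed without shControl library 1 (0.0772), without sh*Ppargc1b* library 1 (0.0580) or with DESeq2 (0.0673), and the count that rose was 1 without sh*Ppargc1b* library 3.

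Cell type markers moved with the knockdown. Of 12 dendritic cell markers 6 were higher and 1 lower, and of 8 macrophage markers 3 were lower, with *Mrc1* at a group mean of 307 in shControl and 107 CPM in sh*Ppargc1b* cells. Summed neutrophil markers, mostly *Mmp8*, were at 706 to 938 CPM in unstimulated shControl and 1166 to 1461 in sh*Ppargc1b* libraries, with 3 of 10 markers higher, while *Ly6g* was at 0.403 and 0.302. Summed eosinophil markers were at 168 to 183 against 68.6 to 106 CPM, with 1 of 6 lower (*Ear2*). Of 12 myeloid progenitor markers, 3 were higher (*Kit*, *Cd34* and *Sox4*, *Kit* at 7.54 and 14.3 CPM). The summed progenitor markers overlapped at 342 to 465 and 380 to 461 CPM, but were mostly *Ly6c2*, at group means of 369 and 370. Summed lymphocyte and erythroid markers did not exceed 1.13 and 0.360 CPM in any library. The part of these cells in the members' values was not tested.

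The same comparison was made among IFN-β-treated cells. Of the 38 members, 0 rose and 2 fell, *Mcm10* and *Bub1b*, against 11.5% higher and 12.7% lower over all genes. At an unadjusted p under 0.05 edgeR gave 1 higher and 7 lower, and DESeq2 gave 0 and 3 at its adjusted p. Of all 18228 genes these were 2967 and 3332, and 2117 and 2499. Adding the run gave 0 higher and 12 lower (13.3% and 15.1% of all genes). The median log2 fold change was -0.21 over the members and -0.0108 over all genes, at -0.07 for replication and -0.24 for mitosis. Without treated sh*Ppargc1b* library 2 it was -0.03 over the members and -0.02 over all genes. Without treated sh*Ppargc1b* library 3 it was -0.37 over the members. *Mcm10*, a helicase-activating factor, was at 9.81, 10.0 and 10.7 CPM in shControl and at 6.45, 5.10 and 8.19 in sh*Ppargc1b* libraries, with no overlap (-0.63, SE 0.19, adjusted p = 0.0266). Its adjusted p was 0.0518 without shControl library 2, 0.0779 without shControl library 3, 0.0644 without sh*Ppargc1b* library 1 and 0.0911 without sh*Ppargc1b* library 2, each of which left 1 member lower, and 5 members were lower without sh*Ppargc1b* library 3. Without unstimulated shControl library 1 or 2 or unstimulated sh*Ppargc1b* library 1, 1 member rose. *Bub1b* was at 19.6, 18.2 and 17.9 against 15.7, 11.2 and 15.5 CPM (-0.39, SE 0.10, adjusted p = 0.0102).

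Among the other members, the licensing factor *Cdc6* was at 2.83, 3.23 and 3.21 against 2.07, 2.16 and 2.49 CPM, which did not overlap (-0.47, adjusted p = 0.0596), and *Cdc45* had a value of -0.50 (adjusted p = 0.106). *Cdt1* (0.15, adjusted p = 0.221) and *Pcna* (0.12, adjusted p = 0.0922) lay higher in every sh*Ppargc1b* library than in every shControl library and did not pass. *Mki67* was at 158, 158 and 174 against 143, 104 and 148 CPM (-0.31, adjusted p = 0.140). *Cdc20*, the activator of the anaphase-promoting complex, had the highest value of the module, at 1.23, 0.491 and 1.79 against 1.86, 0.824 and 1.57 CPM (0.24, SE 0.40, adjusted p = 0.725). It rested on single libraries and was -0.14 without shControl library 2 and -0.02 without sh*Ppargc1b* library 1. Summed neutrophil markers were at 597 to 770 against 1024 to 1256 CPM with 3 of 10 higher, and eosinophil markers at 185 to 195 against 65.3 to 118, with 1 of 6 lower. Of 12 progenitor markers 3 were higher, of 12 dendritic cell markers 7 were higher, and of 8 macrophage markers 3 were lower. Their part was not tested.

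**Figure D2:**
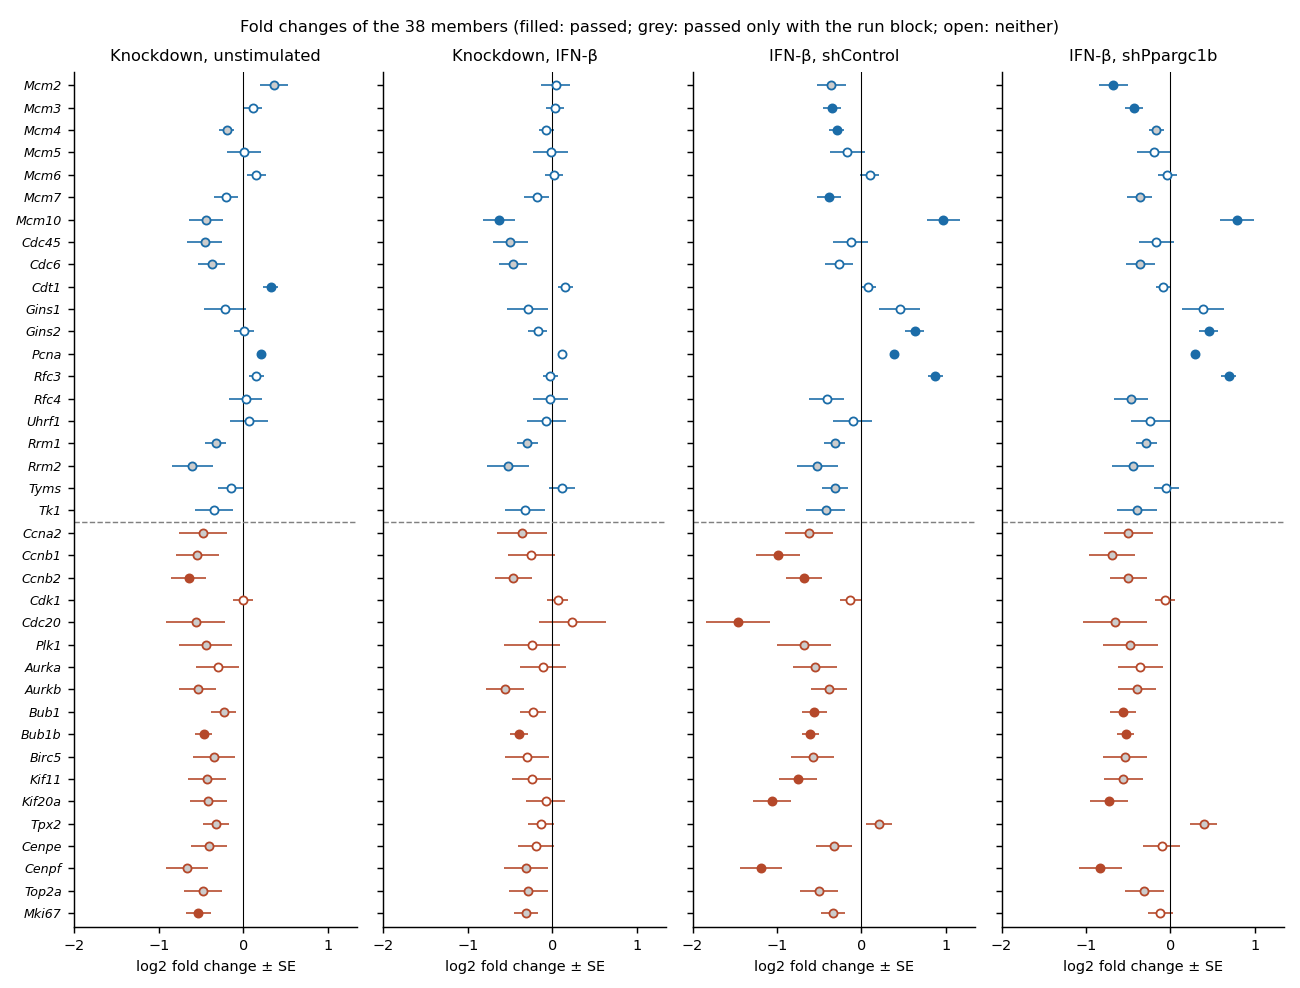
Log2 fold change with its SE (horizontal axis) of each member (vertical axis, replication in blue above the dashed line, mitosis in red below it) in the knockdown without and with IFN-β and in the IFN-β response of shControl and sh*Ppargc1b* cells. Filled points passed the edgeR test, grey points passed only when the run of library codes was a term of the model, and open points passed neither; the IFN-β panels run from *Cdc20* at -1.46 to *Mcm10* at 0.97.

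To ask how IFN-β acted on these genes, treated and untreated shControl cells were compared. At 6 h, 4 members rose (*Mcm10*, *Rfc3*, *Gins2*, *Pcna*) and 11 fell (*Cdc20*, *Cenpf*, *Kif20a*, *Ccnb1*, *Kif11*, *Ccnb2*, *Bub1b*, *Bub1*, *Mcm7*, *Mcm3*, *Mcm4*), and 8 of the 11 were mitosis members. Over all genes 23.7% rose and 24.6% fell. All 4 that rose were replication members. With the run as a term the counts were 5 and 24 (25% and 26.3% of all genes). With plain library totals they were 4 and 27, beside 4 and 11 with TMM. The all-gene median was then -0.27, and shares over all genes under those totals are not given here. With TMM the median log2 fold change was -0.35 over the members, -0.22 over replication and -0.59 over mitosis, against -0.0338 over all genes. Over the members it ran from -0.44 to -0.27 when 1 library was left out. Of 12 dendritic cell markers 3 were higher and 2 lower, of 8 macrophage markers 3 and 1, and of 12 progenitor markers 2 and 2. Summed progenitor markers, mostly *Ly6c2*, were at 342 to 465 CPM without and 791 to 920 with IFN-β. *Kit* went from 7.54 to 4.57 and *Sox4* from 7.46 to 2.79. The part of these cells was not tested.

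The genes that rose belong to the helicase, the clamp and its loader. *Mcm10* went from 4.85, 4.87 and 5.85 to 9.81, 10.0 and 10.7 CPM, with every treated library above every untreated one (0.97, SE 0.20, adjusted p = 0.000651). *Rfc3*, a subunit of the clamp loader, went from 5.09, 6.23 and 6.14 to 10.6, 11.1 and 10.4 CPM (0.87, SE 0.09, adjusted p = 7.64e-07). *Rfc4*, another subunit of the same loader, had a value of -0.41 (adjusted p = 0.111). *Gins2* rose by 0.63 (SE 0.11, adjusted p = 0.000237), and 67.3% of its exon bases overlap *Gse1* on the opposite strand, so its counts are uncertain where strand was not used. Its partner *Gins1* had a value of 0.46 (adjusted p = 0.138). *Pcna* went to 78.5, 79.7 and 77.5 CPM (0.38, SE 0.05, adjusted p = 7.28e-06). Of the Mcm2-7 ring, *Mcm3* (-0.35, adjusted p = 0.0128), *Mcm4* (-0.29, adjusted p = 0.0134, to 26.5, 25.8 and 26.7 CPM) and *Mcm7* (-0.38, adjusted p = 0.0399) fell, and *Mcm6* had a value of 0.10 (adjusted p = 0.500). *Rrm1* was at 30.2, 28.3 and 31.4 CPM with IFN-β, below every untreated library, and did not pass (-0.31, adjusted p = 0.0508).

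The mitosis genes that fell span cyclins, motors, centromere and checkpoint. *Cdc20* went from 3.27, 2.52 and 4.08 to 1.23, 0.491 and 1.79 CPM, a fitted fold change to 36.4% of its untreated level (-1.46, SE 0.38, adjusted p = 0.00442). *Cenpf* went to 9.16, 8.47 and 12.1 CPM, a fitted fold change to 43.9% of its untreated level (-1.19, SE 0.25, adjusted p = 0.00102). *Kif20a*, a motor of the spindle midzone, went from 14.7, 12.5 and 17.4 to 7.24, 5.69 and 8.31 CPM (-1.06, SE 0.23, adjusted p = 0.00112), and 29.3% of its exon bases overlap *Cdc23* on the opposite strand. None of these groups overlapped. *Ccnb1* fell by 0.99 (adjusted p = 0.00568), *Kif11*, the motor that separates spindle poles, by 0.75 (0.0124) and *Ccnb2* by 0.68 (0.0139), each on the log2 scale. *Bub1b* went to 19.6, 18.2 and 17.9 CPM (-0.60, SE 0.10, adjusted p = 0.000107) and *Bub1* to 19.2, 16.7 and 22.3 CPM (-0.56, SE 0.15, adjusted p = 0.00660). *Mki67* went to 158, 158 and 174 CPM, below every untreated library, without passing (-0.34, SE 0.14, adjusted p = 0.0640). *Cdk1* was at 13.9, 13.9 and 15.1 CPM (-0.13, adjusted p = 0.406). *Tpx2*, which activates *Aurka* on the spindle, was the mitosis member with a value above 0 (0.21, adjusted p = 0.298), and under library totals it was -0.033. The count that fell was 6 without treated shControl library 2, 18 without untreated shControl library 2 and 19 without treated sh*Ppargc1b* library 2. Without treated shControl library 2, *Mcm3* (adjusted p = 0.0841), *Mcm4* (0.0598), *Mcm7* (0.165), *Ccnb2* (0.0686) and *Kif11* (0.0667) no longer passed. *Mcm7* passed in no fit that left out untreated shControl library 3 (0.193), another IFN-β-treated shControl library (0.0906 and 0.0578) or a treated sh*Ppargc1b* library 1 or 3 (0.0518 and 0.0508), and untreated shControl library 3 also decided *Mcm4* (0.0591) and *Ccnb2* (0.0560), as treated shControl library 1 did *Kif11* (0.0586).

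In sh*Ppargc1b* cells, 4 members rose with IFN-β (*Mcm10*, *Rfc3*, *Gins2*, *Pcna*) and 6 fell (*Mcm2*, *Mcm3*, *Bub1*, *Bub1b*, *Kif20a*, *Cenpf*), against 21.4% and 21.2% of all genes. With library totals 2 rose and 19 fell, and *Gins2* (adjusted p = 0.0824) and *Pcna* (0.143) no longer passed. The all-gene median was then -0.22, and shares over all genes under those totals are not given here. Adding the run gave 5 higher and 22 lower (22.8% and 23.2% of all genes). The median was -0.36 over the members, -0.18 over replication, -0.50 over mitosis and -0.0184 over all genes. Over the members it was -0.10 without untreated sh*Ppargc1b* library 3, -0.12 without treated library 2 and -0.47 without treated library 3. Of 12 dendritic cell markers 3 were higher and 0 lower, of 8 macrophage markers 3 and 1, and of 12 progenitor markers 2 and 2. The part of these cells was not tested. *Mcm10* went from 2.66, 3.44 and 5.26 to 6.45, 5.10 and 8.19 CPM, with overlap (0.78, SE 0.20, adjusted p = 0.00509), and *Rfc3* from 6.73, 6.19 and 6.56 to 9.91, 10.3 and 11.3 without it (0.69, SE 0.09, adjusted p = 1.16e-05). *Gins2* (0.45, adjusted p = 0.00428) and *Pcna*, at 84.1, 85.8 and 85.7 CPM (0.29, adjusted p = 0.000145), also did not overlap. *Mcm2* went from 9.07, 12.6 and 14.5 to 7.97, 6.27 and 8.43 CPM, below every untreated library (-0.68, SE 0.17, adjusted p = 0.00443), and *Mcm3* fell by 0.43 on the log2 scale (adjusted p = 0.00352). *Bub1b* went to 15.7, 11.2 and 15.5 CPM (-0.53, SE 0.10, adjusted p = 0.000516) and *Bub1* to 16.8, 14.5 and 18.5 CPM (-0.56, SE 0.15, adjusted p = 0.00805), the latter with overlap.

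*Cenpf* had the lowest value in this comparison, from 15.98, 9.51 and 17.4 to 8.53, 4.73 and 10.9 CPM, and its groups overlapped through run 2 (-0.83, SE 0.26, adjusted p = 0.0163). *Kif20a* went from 10.0, 7.99 and 15.4 to 7.48, 4.70 and 8.03 CPM (-0.73, SE 0.23, adjusted p = 0.0180). Without untreated sh*Ppargc1b* library 3 or treated sh*Ppargc1b* library 2, neither *Cenpf* (adjusted p = 0.0776 and 0.0661) nor *Kif20a* (0.135 and 0.0827) passed, and *Cenpf* was at 0.0526 without untreated sh*Ppargc1b* library 1. *Cdc20* was at 1.86, 0.824 and 1.57 CPM after IFN-β and did not pass (-0.66, SE 0.38, adjusted p = 0.182), and *Ccnb1* had a value of -0.69 (adjusted p = 0.0515). *Tpx2* had a value of 0.39 (SE 0.16, adjusted p = 0.0570). *Mki67* went from 143, 112 and 174 to 143, 104 and 148 CPM (-0.12, adjusted p = 0.551). The count that fell was 10 without untreated sh*Ppargc1b* library 2 and 12 without treated sh*Ppargc1b* library 3.

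Whether the knockdown effect differed with IFN-β was tested as an interaction. It passed for 0 of 38 members and for 0.73% of all genes. edgeR gave 0 members at an unadjusted p under 0.05, and DESeq2 gave 0 at its adjusted p. The highest and lowest values were 0.80 for *Cdc20* (SE 0.53, adjusted p = 0.674) and -0.32 for *Mcm2* (SE 0.24, adjusted p = 0.733). The median was -0.08 over replication and 0.19 over mitosis, where 16 of 18 values were above 0, as were 9079 of all 18228 genes. The interaction median over the 38 members was 0.03 with all libraries. It was -0.10 without treated sh*Ppargc1b* library 3 and 0.28 without untreated sh*Ppargc1b* library 3. Since each group entered 2 of the 4 comparisons above, counts and directions were not set against each other between them, and the differences between them rest on this test.

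Summed over the arm, the mitosis members came to 530.6, 440.6 and 582.9 CPM in unstimulated shControl, 374.0, 284.7 and 469.5 in unstimulated sh*Ppargc1b*, 373.7, 350.7 and 414.9 in treated shControl and 340.5, 233.7 and 374.1 in treated sh*Ppargc1b* libraries. The replication members came to 283.0, 263.9 and 328.1, then 254.5, 279.5 and 328.0, then 286.9, 276.2 and 301.4, and then 289.8, 245.5 and 299.0 CPM. Percentages of the sums are from the mean of the log2 differences within the runs, not from group means of CPM. The mitosis sum in sh*Ppargc1b* was 71.6% of that in shControl cells without IFN-β (70.5%, 64.6% and 80.5% within the runs) and 81.8% with it (91.1%, 66.6% and 90.2%). With IFN-β it was 73.6% of the untreated sum in shControl (70.4%, 79.6% and 71.2%) and 84.1% in sh*Ppargc1b* cells (91.03%, 82.1% and 79.7%). The replication sum was 98.4%, 96.2%, 99.2% and 97.0% in the same 4 comparisons, with values from 87.8% to 113.9% within the runs. *Pcna* was its largest part, at group means of 60.3, 69.7, 78.6 and 85.2 CPM in the order of the groups above. Median log2 fold changes over the replication members were -0.07, -0.07, -0.22 and -0.18, so the sum does not stand for each member. The ratio of the mitosis to the replication sum, which does not depend on library scaling, was 1.77 ± 0.102, 1.31 ± 0.250, 1.32 ± 0.0546 and 1.13 ± 0.156 (SD, n = 3) in the 4 groups, and its lowest value in unstimulated shControl, 1.67, lay above every library of the other groups. *Mki67* and *Top2a* made up much of the mitosis sum, and without them it was 249.6 ± 35.7, 188.8 ± 48.1, 173.0 ± 19.5 and 148.5 ± 36.4 CPM.

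**Figure D3:**
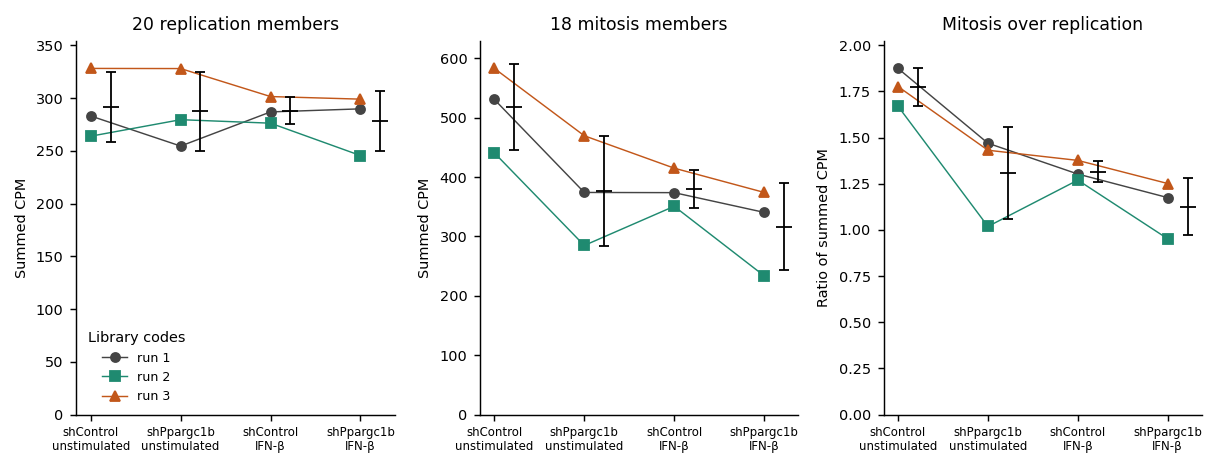
Summed CPM of the 20 replication members, of the 18 mitosis members and the ratio of the sums (vertical axes, from 0) in the 4 groups (horizontal axis), with a marker per library, lines joining libraries of a run of library codes, and bars for the group mean and SD (n = 3). The mitosis sums differ between groups and runs, from 233.7 to 582.9 CPM, while the replication sums, with *Pcna* as their largest part, stay between 245.5 and 328.1.

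The levels of most mitosis members differed between the runs of library codes. The run was tested in a model with group and run, and it passed for 17 of 18 mitosis members, all but *Bub1b*, for 6 of 20 replication members (*Mcm5*, *Mcm7*, *Uhrf1*, *Rrm1*, *Rrm2*, *Tk1*) and for 3.58% of all genes. Median deviations from the group means were 0.04, -0.36 and 0.31 log2 in runs 1, 2 and 3 over mitosis, and -0.03, -0.14 and 0.19 over replication. *Cdc20* spread most, at 0.19, -0.65 and 0.46, and *Pcna* little, at -0.01, -0.01 and 0.02. The library of run 2 was the lowest of its group in all 4 groups for 12 of 18 mitosis members, and that of run 3 the highest for 13 of 18.

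Within runs, 17 of 18 mitosis members were lower in sh*Ppargc1b* than in shControl cells in all 3 runs without IFN-β, where 27.9% of all genes were, and 9 of 18 with IFN-β (30.1% of all genes). With IFN-β, 16 of 18 were lower in all 3 runs of shControl (36.5% of all genes) and 15 of 18 in sh*Ppargc1b* cells (33% of all genes). For replication the counts were 9, 9, 11 and 8 of 20. With the run as a term the interaction passed for 0 members and for 2.33% of all genes. Of those that passed with the run as a term, *Mcm2* (0.35, adjusted p = 0.0392) was added to the risers in the knockdown without IFN-β, and *Tpx2* in both IFN-β responses (0.21, adjusted p = 0.0268 in shControl and 0.40, 0.000445 in sh*Ppargc1b*). *Cenpf* (-0.70, adjusted p = 0.000186), *Rrm2* (-0.60, 0.00102), *Top2a* (-0.51, 0.00193) and *Rrm1* (-0.32, 0.00255) were among the 22 that fell with the knockdown without IFN-β.

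**Figure D4:**
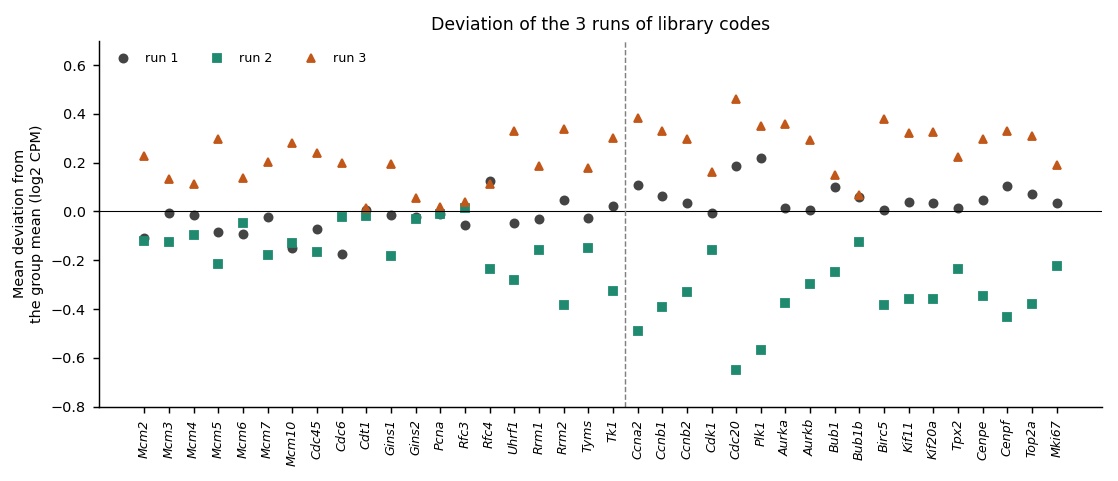
Mean deviation from the group mean, in log2 CPM (vertical axis), of the libraries of each run of library codes (marker) for each member (horizontal axis, replication left of the dashed line, mitosis right of it). Over the mitosis members run 2 lies lowest (median -0.36) and run 3 mostly highest (median 0.31), while *Pcna*, *Cdt1*, *Gins2* and *Rfc3* barely separate.

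Genes of the same processes outside the 38 were read from lists of 54 replication, 66 mitosis, 50 cell cycle control (49 tested) and 23 DNA damage checkpoint genes. In the knockdown without IFN-β, 1 replication gene rose and 4 fell, and 1 mitosis gene rose and 5 fell. Of all genes 12.4% rose and 11.1% fell. In the model with the run 7 replication and 44 mitosis genes fell, against 13.4% of all genes. The mitosis median was -0.45 and the replication median -0.08. Among genes with a mean log2 CPM of at least 1, the mitosis genes that passed furthest from 0 in each direction were the condensin subunits *Ncapd2* (-0.68, adjusted p = 0.0101), *Ncapg* (-0.63, 0.0111) and *Ncapg2* (0.26, 0.0371). The replication genes that passed furthest from 0 were *Dck*, deoxycytidine kinase (-0.39, 8.53e-05), *Gmnn*, the inhibitor of Cdt1 (-0.37, 0.0197), and the methyltransferase *Dnmt1* (0.23, 0.000773). With IFN-β, 1 replication gene rose and 6 fell (11.5% and 12.7% of all genes), led by *Dck* (-0.59, 2.31e-06), *Gmnn* (-0.46, 0.00612) and the origin recognition subunit *Orc2* (0.38, 0.00736). Of the other mitosis genes 0 passed in either direction in edgeR, where 8 were lower at an unadjusted p under 0.05 and 3 with DESeq2, and 25 were lower with the run as a term. Of all 18228 genes 3332, 2499 and 2758 were lower in the same ways.

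IFN-β in shControl cells raised 9 and lowered 23 of the other replication genes, and raised 1 and lowered 33 of the other mitosis genes (medians -0.29 and -0.53). Of all genes 23.7% rose and 24.6% fell. In sh*Ppargc1b* cells the counts were 6 and 25, and 1 and 21 (medians -0.30 and -0.43), against 21.4% and 21.2% of all genes. With the run as a term, 50 other mitosis genes fell in shControl and 41 in sh*Ppargc1b* cells (26.3% and 23.2% of all genes). The rises included *Timeless*, a fork protection and clock protein (2.66 in shControl and 2.41 in sh*Ppargc1b*), and *Dck* (1.91 and 1.72), while *Tipin*, the partner of *Timeless*, fell (-0.95 and -0.92), as did the polymerase subunit *Pold2* (-0.86 and -0.90). *Pttg1*, which encodes securin, was the 1 mitosis gene that rose (2.36 and 2.26). *Hmmr* fell in both (-1.07 and -0.82), and so did *Aspm* in shControl (-1.18) and *Kif14* in sh*Ppargc1b* cells (-0.84). Of the DNA damage genes, 2 rose and 14 fell in shControl and 2 rose and 12 fell in sh*Ppargc1b* cells, with *Atm* (0.49 and 0.33) and *Rad9a* (0.35 and 0.34) higher and *Brca2* (-0.92 and -1.03) and *Xrcc2* (-0.86 and -0.81) lower. In the knockdown, 1 rose and 2 fell without IFN-β (*Hus1* 0.25, *Chek2* -0.41, *Rad17* -0.17), and 1 rose and 3 fell with it, among them *Trp53bp1* (0.16), *Chek2* (-0.47) and *Atm* (-0.24).

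Regulators of entry into the cycle were read one by one. With IFN-β the D-type cyclin *Ccnd1* went from 21.8, 22.7 and 27.1 to 139, 144 and 146 CPM in shControl (2.58, SE 0.15, adjusted p = 9.42e-10), and *Ccnd2* from 166, 187 and 202 to 877, 936 and 925 (2.30, SE 0.10, adjusted p = 2.57e-11). In sh*Ppargc1b* cells they rose by 2.37 and 2.01. The inhibitor *Cdkn1a*, which encodes p21, rose as well, from 207, 188 and 186 to 384, 377 and 394 CPM (0.99, adjusted p = 5.8e-09) in shControl and by 0.79 in sh*Ppargc1b* cells. The retinoblastoma relative *Rbl1* rose (1.09 and 0.89), *Rb1* itself fell (-0.28 and -0.27), *Cdk4* fell (-0.50 and -0.49), *Cdk6* rose (0.47 and 0.26) and *E2f1* fell (-0.23 and -0.32). *E2f8*, a repressing E2F, passed in shControl (0.39, adjusted p = 0.000108) and not in sh*Ppargc1b* cells (0.11, adjusted p = 0.174), and the test of the difference did not pass (-0.28, adjusted p = 0.213). Over the control list 13 rose and 18 fell in shControl (23.7% and 24.6% of all genes) and 11 rose and 15 fell in sh*Ppargc1b* cells (21.4% and 21.2%). Among those that fell were *Tfdp2* (-1.09) and *E2f6* (-1.01) in the former and *E2f2* (-0.77) and *E2f6* (-0.72) in the latter. *Ccnd3*, *Ccne1*, *Cdkn2c* and *E2f7* did not pass in any of the 4 comparisons, with values from -0.56 to 0.27. With the run as a term *E2f7* was lower in both knockdown comparisons (adjusted p = 0.0184 and 0.0143) and in the IFN-β response of sh*Ppargc1b* cells (0.0371), where *Ccnd3* (0.0370) and *Ccne1* (0.0477) were higher, and *Cdkn2c* was lower in the knockdown without IFN-β (0.0471).

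In the knockdown without IFN-β, 14 control genes rose and 7 fell, and with IFN-β 9 rose and 8 fell. The shares of all genes were 12.4% and 11.1%, and 11.5% and 12.7%. The model with the run gave 14 higher and 12 lower, and 12 higher and 12 lower, against 14.2% and 13.4%, and 13.3% and 15.1%, of all genes. *E2f8* went from 25.4, 26.3 and 29.5 to 36.6, 41.4 and 42.6 CPM without IFN-β (0.57, SE 0.06, adjusted p = 9.64e-06) and rose by 0.29 with it (adjusted p = 0.00289). *Ccnd2* (0.46, adjusted p = 0.00249), *Ccnd1* (0.54, 0.0147), *Cdkn1a* (0.24, 0.0144) and *Cdk6* (0.19, 0.0302) rose and *Rb1* fell (-0.20, 0.00276) without IFN-β. With it, *Rb1* (-0.20, 0.00313), *Rbl1* (-0.31, 0.000974) and *Cdkn1b*, which encodes p27 (-0.27, 0.0483), fell. *Cdkn2b*, which encodes an inhibitor of *Cdk4* and *Cdk6*, rose by 0.89 and 0.85, *Gadd45b* rose by 0.72 without IFN-β and *E2f5* by 0.57 with it. The phosphatase *Cdc25b* fell by 0.82 and 0.63 on the log2 scale, *Tfdp2* by 0.66 without IFN-β and *Cdkn2d* by 0.53 with it. *Foxm1*, the activator of many mitosis genes, was at 8.75, 6.67 and 10.3 against 5.70, 3.45 and 7.77 CPM without IFN-β, which overlapped (-0.60, SE 0.25, adjusted p = 0.109). With the run as a term it passed as lower in the knockdown without IFN-β (-0.63, adjusted p = 0.000685) and with it (-0.37, 0.0371) and in the IFN-β response of shControl cells (-0.48, 0.00274). *Mybl2*, which encodes B-Myb, was at 1.56 to 2.73 against 1.83 to 2.75 CPM (0.06, adjusted p = 0.869). The interaction passed for 0 of the 49 control genes, where edgeR gave 3 higher and 8 lower at an unadjusted p under 0.05 and DESeq2 gave 1 and 1. With the run as a term 2 passed as lower, *Cdk6* (-0.22, adjusted p = 0.0441) and *Gadd45b* (-0.33, 0.0192).

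**Figure D5:**
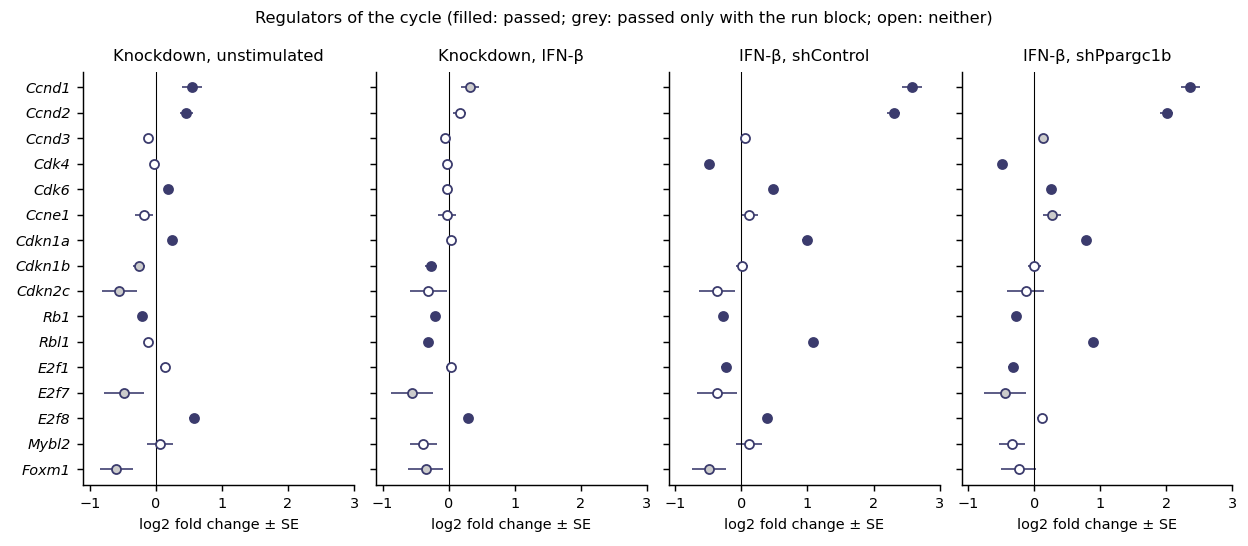
Log2 fold change with its SE (horizontal axis) of 16 regulators of the cycle (vertical axis) in the same 4 comparisons, filled where they passed the edgeR test, grey where they passed only with the run of library codes in the model and open otherwise. *Ccnd1* and *Ccnd2* stand furthest from 0 with IFN-β, at 2.58 and 2.30 in shControl cells, and *E2f8* is the regulator with the largest knockdown value without IFN-β that passed, at 0.57.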

How the data were processed

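Ribosome-depleted RNA of 12 libraries was sequenced in read pairs. Per the methods the authors trimmed adapters, mapped to mm10 and counted GENCODE genes with STAR. The submitters' processing notes name Trim Galore 0.6.0 and STAR 2.7.8a, the methods another STAR version, and the strand setting was not stated. The deposited values were raw counts per gene, unpooled, and all 12 columns were used. Genes without a symbol held 2.57% of counts. Replicates differed by more than counting noise (chi-square over degrees of freedom 8.11 to 20.2), so none was taken as deposited a second time.

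Genes were kept by filterByExpr (minimum count 10, minimum total 15). Counts were scaled by TMM and fitted with edgeR 4.0.16 (quasi-likelihood, 1 mean per group, all 12 libraries, R 4.3.3, limma 3.58.1), with Benjamini-Hochberg adjustment over 18228 genes and a threshold of 0.05, as in the study's methods. Every adjusted p is from edgeR unless DESeq2 (1.42.0) is named. CPM values are TMM-scaled, with a prior count of 2 in log2 differences within runs. An exact permutation test of 3 against 3 cannot go below 0.1. RPKM used the length of all annotated exons of a gene together. Only the main edgeR fit was tested on simulated counts, which had a shared dispersion and no run effect.

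Deviations from group means correlated at 0.0276 to 0.146 between libraries of a run and at -0.154 to 0.0565 between runs. The labels name no batch or replicate number, so the run was an alternative and not the main model. The run passed for 23 of the 38 members, and the main model counts that spread as error. Alternatives were DESeq2, other scalings, no filter, the run as a block, 6 libraries only, a fold threshold and leaving out each library. The members and lists were chosen with earlier results of these data known. Named were all members by role, with values per library for the highest of each role and the largest rise and fall per comparison, other genes by the 2 furthest from 0 per list and direction among those that passed and whose log2 CPM averaged 1 or more, and 16 regulators.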

Additional observations from a re-analysis of the deposited data

How the results depend on the processing

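No member that passed changed direction under any alternative. *Tpx2*, which did not pass in the IFN-β response of shControl cells, was at -0.033 with library totals, and *Cdc20*, which did not pass in the knockdown with IFN-β, ranged from -0.14 (without shControl library 2) to 0.72 (without shControl library 3) and was -0.02 without sh*Ppargc1b* library 1. The labels give no replicate numbers, so the run of library codes was used as the replicate block of a paired fit. The members that fell in the knockdown without and with IFN-β and in the IFN-β response of shControl and sh*Ppargc1b* cells numbered 22, 12, 24 and 22 with the library code run block and 19, 13, 24 and 23 without the filter on low counts, against 3, 2, 11 and 6. Shares of all genes are given above for the main fit and the run block, and not for library totals or the fit without the filter. With library totals, 1 member rose in the knockdown with IFN-β, 27 fell in the response of shControl cells, and 2 rose and 19 fell in that of sh*Ppargc1b* cells. The all-gene medians were then 0.01, -0.27 and -0.22. The summed log2 differences were then -0.25 (replication, shControl), -0.68 (mitosis, shControl) and -0.25 (replication, sh*Ppargc1b*). With a log2 fold change of at least 1, 0 members rose or fell in either knockdown comparison or in the response of sh*Ppargc1b* cells, and 0 rose and 3 fell in that of shControl cells. With only the 6 libraries compared, 1 member rose in the knockdown with IFN-β and 22 fell in the response of shControl cells. Leaving out 1 library gave 1 to 3 higher and 1 to 17 lower in the knockdown without IFN-β, 0 to 1 higher and 1 to 5 lower with it, 4 higher and 6 to 19 lower in the response of shControl cells, and 4 to 6 higher and 4 to 12 lower in that of sh*Ppargc1b* cells. The cause of these shifts was not tested, apart from the fewer genes that a fold threshold allows. Of the values of single members named above under alternatives, 1456 stayed on their side of the threshold, 235 came to pass it and 32 no longer did. With 3 libraries a group, a member with a wide spread between runs could differ and not pass.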
